A study of Mus musculus with 2 samples.

Results

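The genes of the Wnt pathway described here are the Wnt ligands, the Frizzled receptors with the co-receptors Lrp5 and Lrp6, the secreted inhibitors of the Sfrp and Dkk families, and the feedback and nuclear regulators Axin1, Axin2, Nkd1, Nkd2, Lef1, Tcf7, Tcf7l1, Tcf7l2 and Sp5. They were chosen by symbol, from a name pattern applied to the gene table. The pattern itself uses no measured value, but it was chosen with earlier results of these data known. The pattern found 48 of the 34126 genes of the table: 19 ligands, 12 receptors, 8 secreted inhibitors and 9 feedback and nuclear regulators. RNA sequencing had been carried out on E14 mouse embryonic stem (ES) cells of the 129P2/OlaHsd strain, in a study whose title concerns CTCF binding sites during differentiation. The undifferentiated library came from cells kept on mitomycin-treated feeder fibroblasts in 15% serum with leukaemia inhibitory factor at 1000 u/ml. The differentiated library came from cells plated without feeders on gelatin in 10% serum and retinoic acid (the all-trans form, 0.1 µM) and collected after 4.5 days as a mixed population. Both cultures belonged to passage 29 of the same line, and each condition is 1 library read on 2 lanes. The labels put the feeder cells left after removal below 0.25%, and dead cells at about 2% before and 8% after differentiation.

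Wnt proteins are secreted, lipid-modified signals that bind Frizzled receptors together with Lrp5 or Lrp6. Without them, a destruction complex built on Axin marks β-catenin for breakdown. With them, β-catenin persists and joins TCF and LEF factors on DNA, where Axin2, Nkd1 and Sp5 are among its usual targets. Some ligands and receptors also act without β-catenin, on cell shape and planar polarity. In mouse ES cells, Wnt signalling favours self-renewal, and Tcf7l1 acts there mainly as a repressor.

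Levels are RPKM, read numbers scaled to the length of the gene model and the reads of the lane, so they can be set side by side between genes. Read totals implied by the values were about 37800000 and 36200000 for the lanes before differentiation and 33100000 and 32000000 for those after it, so 1 RPKM in a model of 1 kb stood for 32.0 to 37.8 reads of a lane. Ratios are given on the log2 scale, differentiated over undifferentiated, after 1 RPKM was added to each level, which understates the difference of genes at low levels. A gene was counted as higher or lower when it reached a floor of 1 RPKM in either library and differed at least 2-fold on that scale. With 1 library per condition no test between the conditions exists, and lane values show the error of sequencing and read assignment only.

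Of the 48 members, 20 were higher by 2-fold or more after differentiation (41.7%) and 2 were at least 2-fold lower (4.17%). Over all 34126 genes the shares were 10.0% and 4.45%. The floor was reached by 37 members, 15 of them through the differentiated library alone, so counts over those 37 lean to the higher side by construction. Fzd9 and Nkd2 reached it through the undifferentiated library alone, 20 members reached it in both, and 11 stayed below it. Among the 20 members at 1 RPKM or more in both libraries, 7 were higher, 1 was lower and 12 lay between. The background for genes at that level in both libraries was 15.7% higher and 7.37% lower, and for all 17899 genes at the floor 19.1% and 8.48%. The median log2 ratio was 0.74 over the 48 members and 0.02 over all genes, and 1.11 and 0.12 over those at the floor. Over the 20 members at 1 RPKM or more in both libraries it was 0.42. In RNA from a mixed population, fewer cells of a type and less RNA per cell cannot be told apart.

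**Figure D1:**
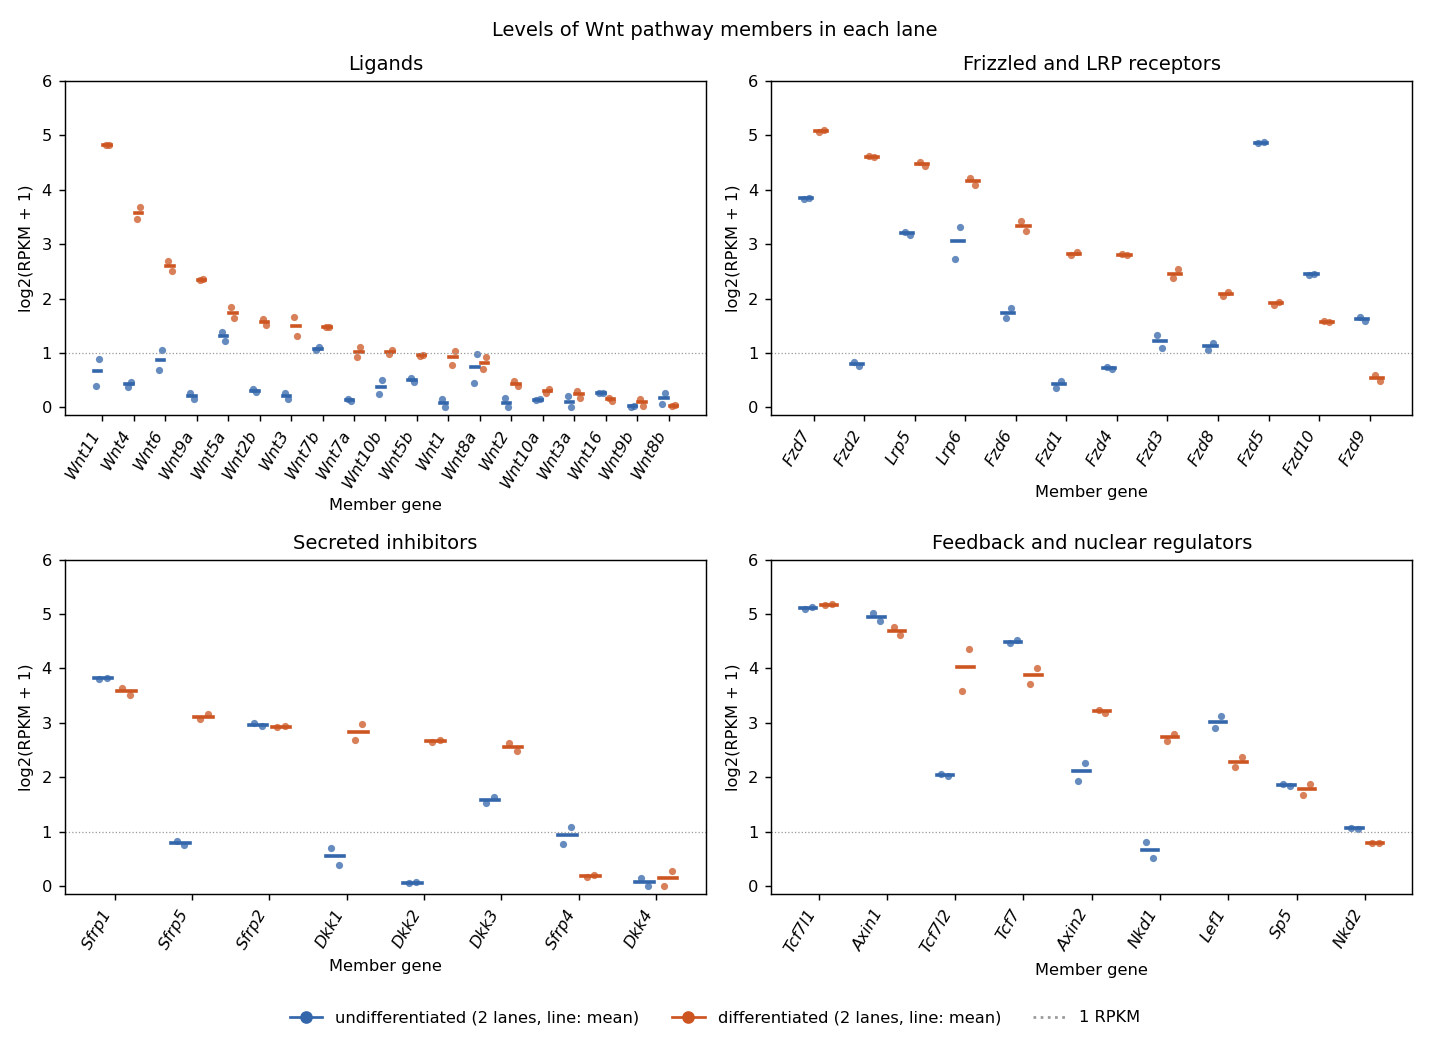
Level of each of the 48 members as log2(RPKM + 1) in each lane, by class, with undifferentiated lanes in blue, differentiated lanes in orange, lines at the lane means and a dotted line at 1 RPKM. Wnt11 and Fzd2 stand below 1 RPKM in both undifferentiated lanes and between 23.4 and 27.5 RPKM in both differentiated lanes, while Fzd5 stands at 28.1 and 28.4 RPKM before and at 2.67 and 2.84 after.

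Markers of cell state differed between the libraries too. All 6 ES cell markers (Pou5f1, Nanog, Sox2, Zfp42, Klf4 and Esrrb) were lower in the differentiated library, with summed levels of 1613 and 1634 RPKM before and 119 and 113 after. All 10 markers of extraembryonic endoderm (Gata4, Gata6, Sox17, Sox7, Foxa2, Lama1, Col4a1, Dab2, Afp and Ttr) were higher, from 36.8 and 38.0 RPKM in sum to 3144 and 3216. Of the 7 fibroblast markers 5 were higher (summed level 30.4 and 25.6 RPKM before, 273 and 272 after), while Thy1 stood at 3.43 and 2.13 RPKM and Lum at 0.0921 and 0.0530. Of the 5 neural markers Nes alone was higher, and of the 5 mesoderm markers Hand1 alone. The neural sum was 10.4 and 11.5 RPKM before and 36.6 and 43.6 after, and the mesoderm sum 2.18 and 3.12 before and 6.82 and 7.53 after. No marker of these lists was at 0 in the mean of either library, though single lanes listed Afp, Ttr, Mesp1 and Lum at 0. The part of these cell types in the Wnt pathway values was not tested.

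The ligands as a family stood near the floor before differentiation and were led by Wnt11 and Wnt4 after it. Of the 19 ligands, 6 were higher (31.6%), 0 were lower, 4 lay between and 9 were below the floor. Over all genes of the table, 10.0% were higher and 4.45% lower. Summed over the family, the lanes read 6.39 and 7.58 RPKM before and 60.5 and 61.2 after. Of the 10 ligands at the floor, 8 reached it through the differentiated library alone, and Wnt5a and Wnt7b reached it in both. The median log2 ratio was 0.46 over all 19 ligands.

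Wnt11 (mm9 chr7:105983622-106003705), a ligand of cell movement in the early embryo and of kidney branching that often acts without β-catenin, had the highest ratio of the 48 members. It was at 0.313 and 0.847 RPKM in the undifferentiated lanes and at 27.1 and 27.5 in the differentiated lanes (log2 ratio 4.16). The groups of lanes lay far apart, and Wnt11 made up 44.9% of the summed ligand level after differentiation against 8.31% before. The RefSeq windows used here cover 2 starts of Wnt11 but leave out Fzd2, the receptor with the largest absolute ratio. Fzd5, Dkk2 and Nkd1 had the largest absolute ratios of their classes among members with a window. The windows of Wnt11, Fzd5, Dkk2 and Nkd1 are printed here. Each is the 250 bases before the RefSeq start on assembly GRCm38.p6, 5′ to 3′ on the gene's strand. That is another build than that of the expression tables, and the starts were not matched to the tables' first exons. Capitals mark CTTTGA, the core of the TCF and LEF binding motif, here as its reverse complement 50 to 45 bases before the start.
Wnt11 window 1, chr7:98834862-98835111, plus strand: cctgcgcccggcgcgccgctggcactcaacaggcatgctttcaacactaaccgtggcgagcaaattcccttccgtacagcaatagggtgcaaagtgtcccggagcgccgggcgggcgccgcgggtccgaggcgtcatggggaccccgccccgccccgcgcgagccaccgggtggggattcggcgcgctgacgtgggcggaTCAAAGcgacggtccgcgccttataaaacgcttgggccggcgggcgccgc
Wnt11 window 2, chr7:98838595-98838844, plus strand: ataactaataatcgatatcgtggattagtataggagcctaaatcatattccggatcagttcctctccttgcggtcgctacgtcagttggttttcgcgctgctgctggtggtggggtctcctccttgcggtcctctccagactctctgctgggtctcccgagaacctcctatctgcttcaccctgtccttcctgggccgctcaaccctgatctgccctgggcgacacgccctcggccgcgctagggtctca
Fzd5, chr1:64737751-64738000, minus strand: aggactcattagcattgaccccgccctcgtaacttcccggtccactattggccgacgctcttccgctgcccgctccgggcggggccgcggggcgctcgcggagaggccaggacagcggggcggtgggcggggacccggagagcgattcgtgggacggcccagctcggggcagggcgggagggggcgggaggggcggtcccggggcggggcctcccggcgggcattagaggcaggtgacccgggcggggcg
Dkk2, chr3:132085042-132085291, plus strand: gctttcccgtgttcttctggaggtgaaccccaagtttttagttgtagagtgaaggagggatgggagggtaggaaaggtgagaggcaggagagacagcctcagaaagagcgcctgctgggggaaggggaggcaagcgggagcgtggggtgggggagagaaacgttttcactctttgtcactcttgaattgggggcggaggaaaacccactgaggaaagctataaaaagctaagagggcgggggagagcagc
Nkd1, chr8:88527383-88527632, plus strand: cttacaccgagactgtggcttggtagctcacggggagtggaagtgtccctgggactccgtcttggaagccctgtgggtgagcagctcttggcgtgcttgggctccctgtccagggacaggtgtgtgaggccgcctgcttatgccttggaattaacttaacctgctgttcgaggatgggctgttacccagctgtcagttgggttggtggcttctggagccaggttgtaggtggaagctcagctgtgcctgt

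Of these 5 windows, the first of Wnt11 alone held CTTTGA on either strand. The windows used here covered 33 of the 48 members, 41 windows in all. CTTTGA was held by 6 of the 41 (14.6%), belonging to Dkk1, Fzd1, Lef1, Sp5, Wnt11 and Wnt5b. Among all 32851 windows of the same length in the reference table the share was 13.8%, so the members' share lay near the background. AGGTCA, a half-site of retinoic acid receptors, was found in 2 of the 41 windows (4.88%, in Tcf7 and Wnt16) against 14.0% of all windows. AGTTCA, another such half-site, was found in 4 of 41 (9.76%, in Lef1, Tcf7l2 and Wnt3) against 11.8%. All 3 motifs were searched on both strands, and no motif contains another. GC content had a median of 66.4% in the members' windows and 52.4% in all windows, and the shares were not adjusted for it. A match describes the letters in a window and says nothing about a bound factor.

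Wnt4 (mm9 chr4:136833404-136855641), known for its role in kidney tubules and the female gonad, came next. It was at 0.296 and 0.387 RPKM in the undifferentiated lanes and at 10.0 and 11.8 in the differentiated lanes (log2 ratio 3.15). Its share of the ligand sum was 4.89% before and 17.9% after, so Wnt11 and Wnt4 ranked first and second among ligands in the differentiated library. Wnt9a, a ligand of joint development, was at 0.192 and 0.115 RPKM before and at 4.07 and 4.10 after (2.14). Wnt6, a ligand of epithelia that has been studied in the formation of primitive endoderm, was at 0.599 and 1.07 RPKM before and at 5.47 and 4.66 after (1.72). The lanes of Wnt6 did not overlap between libraries, although its ratio was 2.02 in lane 1 and 1.45 in lane 2. The Wnt6 model lies within a very long model on the same strand, Gm6497, at 69.3 RPKM before and 54.4 after. The part of Gm6497 in the Wnt6 value was not tested. Wnt3, needed for the primitive streak, was at 0.199 and 0.104 RPKM before and at 2.16 and 1.47 after (1.29). Wnt2b, which acts with Wnt2 in specifying the lung, was at 0.254 and 0.219 RPKM before and at 2.07 and 1.84 after (1.26). Both stayed at low levels after differentiation, with 2.98% of the ligand sum for Wnt3 and 3.21% for Wnt2b.

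The 4 ligands between the limits were weakly expressed in both libraries. Wnt7a, which patterns the dorsal limb, was at 0.117 and 0.0836 RPKM before and at 0.890 and 1.15 after (log2 ratio 0.88), and Wnt10b, a ligand of bone and fat, at 0.181 and 0.412 before and at 0.967 and 1.06 after (0.64). Both had differentiated lanes above the undifferentiated lanes, and both ratios are held down by the added 1 RPKM, since the plain ratios of the means were 10.2 and 3.42. Wnt5a, the best-known ligand acting without β-catenin, was at 1.63 and 1.32 RPKM before and at 2.58 and 2.11 after (0.43). Wnt7b, a ligand of lung and placenta, was at 1.07 and 1.15 before and at 1.79 and 1.80 after (0.41). These were the ligands with the highest undifferentiated levels, at 21.1% and 15.9% of the sum, and they held 3.85% and 2.95% of the larger sum after differentiation.

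Below the floor in both libraries were Wnt1, Wnt2, Wnt3a, Wnt5b, Wnt8a, Wnt8b, Wnt9b, Wnt10a and Wnt16, with means from 0.0142 to 0.944 RPKM. Wnt1, the ligand of the midbrain and hindbrain boundary, came nearest to a higher call, at 0.105 and 0 RPKM before and 0.720 and 1.06 after (log2 ratio 0.84). Wnt3a, the ligand of the tail bud, was at 0.150 and 0 RPKM before and at 0.227 and 0.129 after, with lanes that overlapped. Wnt8a, another ligand of the early posterior embryo, was at 0.370 and 0.967 RPKM before and at 0.634 and 0.898 after, also with overlapping lanes. The ratios of these 9 ligands ran from -0.13 for Wnt8b to 0.84 for Wnt1.

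The tables hold 4 pairs of ligand genes that lie within 50 kb of each other, and neighbours often stood at unlike levels after differentiation. Wnt9a was at 4.09 RPKM and Wnt3a, 16.2 kb away on the opposite strand of chromosome 11, at 0.178. Wnt3 was at 1.82 RPKM and Wnt9b, 24.3 kb away, at 0.0669. Wnt6 was at 5.07 RPKM and Wnt10a, 6.20 kb downstream on the same strand of chromosome 1, at 0.233. Both Wnt6 and Wnt10a lie within Gm6497 on the same strand, and the sharing of reads was not tested. In those pairs 1 neighbour was called higher and the other stayed below the floor. Wnt10b and Wnt1, 11.7 kb apart on chromosome 15, were at 1.01 and 0.888 RPKM, and neither was called.

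**Figure D2:**
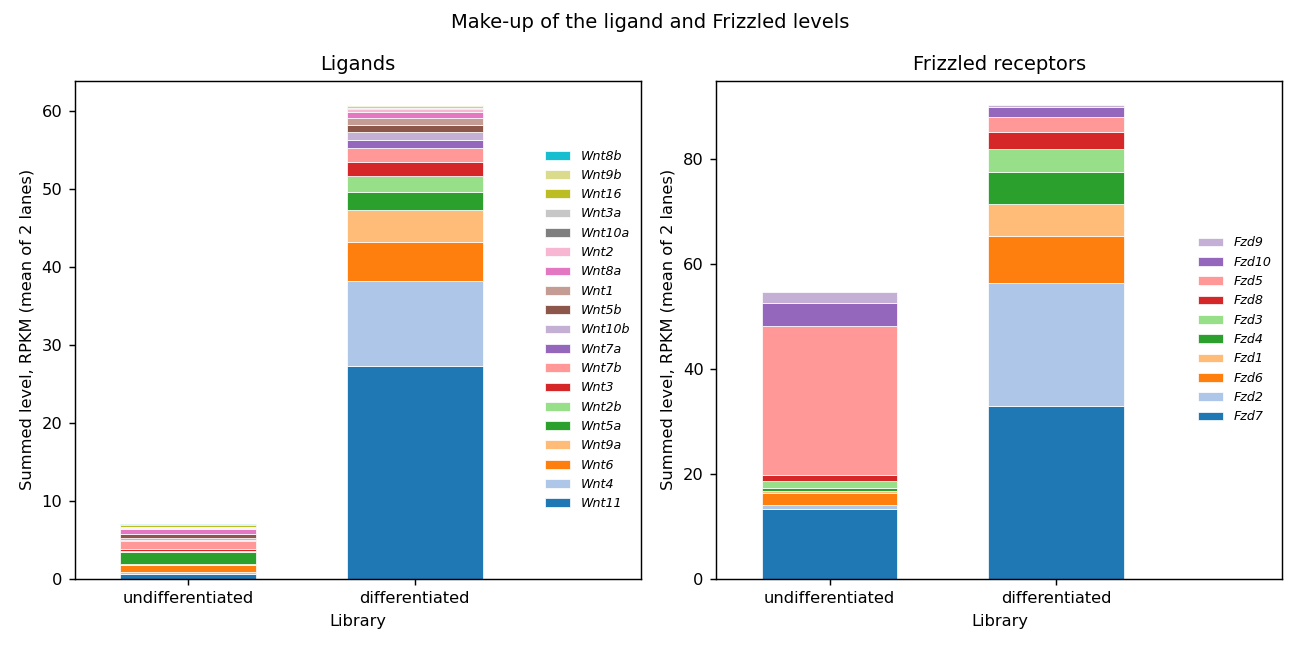
Summed level in RPKM (mean of 2 lanes) of the 19 ligands and of the 10 Frizzled genes in each library, stacked by gene. The ligand stack is 6.98 RPKM high before and 60.8 after, mostly Wnt11 and Wnt4, and the Frizzled stack is 54.6 high before, mostly Fzd5, and 90.3 after, mostly Fzd7 and Fzd2.

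Of the 12 receptors, 8 were higher (66.7%), 2 were lower (16.7%) and 2 lay between (median log2 ratio 1.24). All 12 reached the floor, 8 of them in both libraries, and the background over all genes at the floor was 19.1% higher and 8.48% lower. Their summed level was 68.4 and 71.7 RPKM before and 130 and 127 after. The make-up of the Frizzled family turned over between the libraries, with Fzd5 first before and Fzd7 first after.

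Fzd5 (mm9 chr1:64777132-64784324), a receptor required for blood vessels of the yolk sac, had the lowest ratio of the 48 members. It was at 28.1 and 28.4 RPKM in the undifferentiated lanes and at 2.67 and 2.84 in the differentiated lanes (log2 ratio -2.96), a mean 10.2-fold lower. Its share of the Frizzled sum was 51.7% before and 3.05% after, which moved it from rank 1 to rank 8 of 10. Fzd5 lies within a very long gene model on the opposite strand (Gm6497, 69.3 RPKM before and 54.4 after), and the library kit does not record strand. How reads were divided between them was not tested.

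Fzd2 (mm9 chr11:102465710-102469372), one of a closely related trio with Fzd1 and Fzd7, had the highest ratio of the receptors. It was at 0.781 and 0.687 RPKM before and at 23.5 and 23.4 after (log2 ratio 3.82). Fzd2 is a single-exon gene, so its values convert to reads: 199 before and 5590 after, with exact Poisson 95% intervals of 0.636 to 0.844 and 22.8 to 24.1 RPKM that cover counting error only. Fzd1 was at 0.284 and 0.398 RPKM before (110 reads in all) and at 5.93 and 6.20 after (1728 reads), a log2 ratio of 2.40. The intervals of Fzd1 were 0.279 to 0.410 RPKM and 5.78 to 6.36. Fzd7, the remaining member of the trio and already abundant in ES cells, was at 13.3 and 13.4 RPKM before and at 32.6 and 33.2 after (1.24). The trio thus held 26.0% (Fzd2), 6.71% (Fzd1) and 36.4% (Fzd7) of the Frizzled sum after differentiation, against 1.34%, 0.625% and 24.4% before.

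The other receptors called higher were Fzd4, Fzd6, Fzd3, Lrp5 and Lrp6. Fzd4, which is also the receptor of Norrin in retinal vessels, was at 0.671 and 0.620 RPKM before and at 6.02 and 5.98 after (log2 ratio 2.09). Fzd6 and Fzd3 act together in planar polarity and the guidance of axons. Fzd6 was at 2.11 and 2.53 RPKM before and at 9.72 and 8.40 after (1.60), and Fzd3 was at 1.53 and 1.12 before and at 4.17 and 4.79 after (1.24). Neither gene had overlapping lanes between the libraries. Lrp5 was at 8.36 and 7.97 RPKM before and at 21.9 and 20.7 after (1.28). Lrp6 was at 5.63 and 8.92 RPKM before and at 17.7 and 15.9 after (1.11), and the ratio was 1.49 in lane 1 and 0.77 in lane 2. The call of Lrp6 was lost in lane 2 and under 3 other scalings of the libraries. The 3′ end of Lrp6 overlaps a same-strand row at 2.87 RPKM before and 6.11 after, and the sharing of reads was not tested. Lrp5 made up 52.9% of the co-receptor sum before and 55.8% after, with 59.7% and 47.2% in the separate undifferentiated lanes.

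Fzd9, whose human counterpart lies in the region deleted in Williams syndrome, was the other receptor called lower. It was at 2.17 and 2.01 RPKM before (355 reads) and at 0.514 and 0.395 after (68 reads), a log2 ratio of -1.09, with intervals of 1.88 to 2.32 and 0.354 to 0.577 RPKM. Fzd10 was at 4.42 and 4.47 RPKM before and at 1.99 and 1.96 after (-0.87), with lanes far apart but a ratio inside the limit. It overlaps another row of the table on the same strand, at 0.834 RPKM before and 0.184 after. Fzd8 was at 1.08 and 1.26 RPKM before (290 reads) and at 3.11 and 3.32 after (700 reads), a log2 ratio of 0.96 just under the limit. The plain ratio of means was 2.74 for Fzd8, and 2.25 in the opposite direction for Fzd10, so both calls depend on the added 1 RPKM.

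**Figure D3:**
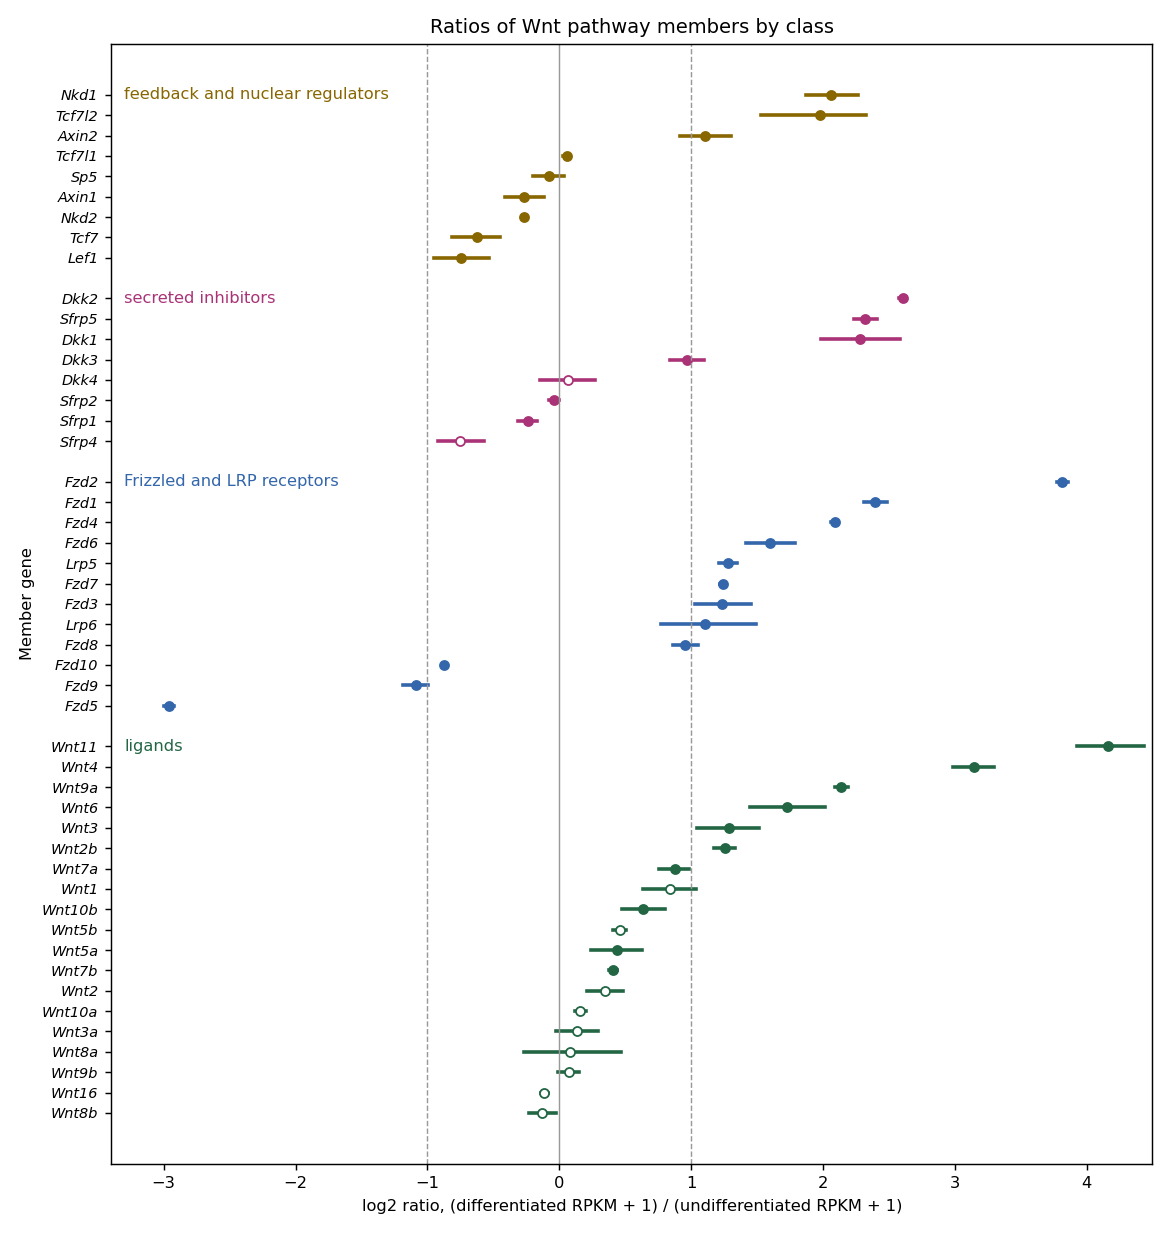
Log2 ratio of each member by class, with a line from the lowest to the highest ratio over the 4 pairings of lanes, dashed lines at 2-fold and open points for the 11 members below the floor. Ligands and receptors lie mostly to the right of 0, with Fzd5, Fzd9 and Fzd10 to the left, while 5 of the 9 feedback and nuclear regulators lie to the left.

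Among secreted inhibitors, the Dickkopf genes Dkk1 and Dkk2 and the Sfrp gene Sfrp5 were higher, and Sfrp1 and Sfrp2 lay between the limits. Of the 8 genes, 3 were higher (37.5%), 0 were lower, 3 lay between and 2 were below the floor. The shares over all genes of the table were 10.0% higher and 4.45% lower. The summed level of the 4 Dkk genes was 2.56 RPKM before and 16.5 after, and that of the 4 Sfrp genes was 21.6 and 25.4. The median log2 ratio was 0.52 over the 8 genes.

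The Dkk1 and Dkk2 proteins bind Lrp5 and Lrp6. Dkk2 (mm9 chr3:131748256-131843268), which can inhibit or weakly activate the pathway, was at 0.0326 and 0.0454 RPKM before and at 5.23 and 5.40 after (log2 ratio 2.60). Dkk1, an inhibitor needed for head formation and a β-catenin target, was at 0.627 and 0.312 RPKM before and at 5.44 and 6.87 after (2.28). Both were below the floor in each undifferentiated lane and above 5 RPKM in each differentiated lane. Dkk3, a divergent member with no settled role in Wnt signalling, was at 1.88 and 2.12 RPKM before and at 5.18 and 4.57 after (0.97), just inside the limit, with 1.10 in lane 1 and 0.84 in lane 2, and it passed the limit in 4 alternative settings. Dkk4 was at 0.105 and 0 RPKM before and at 0 and 0.207 after, too low to order the libraries.

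Secreted Frizzled-related (Sfrp) proteins bind Wnt ligands outside the cell. Sfrp5, known from foregut endoderm and visceral endoderm, was at 0.773 and 0.691 RPKM before and at 7.35 and 7.97 after (log2 ratio 2.32). It went from 3.39% to 30.2% of the Sfrp sum. Sfrp1 remained the largest contributor, at 13.0 and 13.1 RPKM before and 11.5 and 10.4 after (-0.24), and Sfrp2 was at 6.95 and 6.72 before and 6.54 and 6.70 after (-0.04). The lanes of both libraries lay between 6.54 and 6.95 RPKM for Sfrp2, and its sign changed with equal RPKM sums. Sfrp4, below the floor, was at 0.715 and 1.11 RPKM before and at 0.118 and 0.157 after (-0.75).

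The feedback and nuclear regulators had the class median nearest to 0. Of the 9 genes, 3 were higher (33.3%), 0 were lower and 6 lay between, with a median of -0.08 (log2 ratio). All reached the floor, 7 of them in both libraries, and the background over all genes at the floor was 19.1% higher and 8.48% lower. The summed level of the 9 genes was 103 RPKM before and 110 after.

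Nkd1 (mm9 chr8:91045243-91118786), an inhibitor that binds Dishevelled and is itself a β-catenin target, had the highest ratio of the class. It was at 0.742 and 0.432 RPKM before and at 5.37 and 5.91 after (log2 ratio 2.06). Its paralogue Nkd2 was at 1.10 and 1.08 RPKM before and at 0.736 and 0.732 after (-0.27), so the paralogues lay on opposite sides of 0. Nkd2 overlaps a same-strand row, Gm10260, at 2206 RPKM before and 1076 after, and the sharing of reads was not tested. Axin2, the usual reporter of β-catenin activity, was at 2.83 and 3.82 RPKM before and at 8.47 and 8.10 after (1.10). That call was lost in lane 2 (0.92, against 1.31 in lane 1) and under 3 other scalings. The whole Axin2 model lies within another model on the same strand, BC094435, which was at 46.8 RPKM before and 225 after, and its part in the Axin2 value was not tested. Axin1, the scaffold of the destruction complex, was at 31.5 and 28.3 RPKM before and at 26.0 and 23.4 after (-0.26). Sp5, a zinc finger factor induced by β-catenin, was at 2.67 and 2.56 RPKM before and at 2.20 and 2.65 after (-0.08), with overlapping lanes. The Sp5 model too lies within a same-strand row, Ncoa3, at 42.8 RPKM before and 20.3 after, whose part in the Sp5 value was not tested. Of the members described here as β-catenin targets, Nkd1, Axin2 and Dkk1 were called higher and Sp5 was not. The genes so described were not chosen as a full list of targets among the members, and β-catenin activity was not tested.

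The 4 TCF and LEF factors, which bring β-catenin to DNA, summed to 65.6 RPKM before and 67.9 after, but in other proportions. Tcf7l2 was at 3.18 and 3.09 RPKM before and at 11.1 and 19.5 after (log2 ratio 1.98). Its differentiated lanes differed widely, giving ratios of 1.53 and 2.33, and both lay above the undifferentiated lanes. Tcf7l1, the main factor in ES cells, was at 33.3 and 34.2 RPKM before and at 35.0 and 35.2 after (0.06), and its sign changed in 3 settings. Tcf7 was at 21.0 and 22.1 RPKM before and at 12.2 and 15.1 after (-0.62), and Lef1 at 6.50 and 7.78 before and at 3.54 and 4.18 after (-0.74). For both, each differentiated lane lay below each undifferentiated lane, and neither reached a 2-fold difference. Shares of the TCF and LEF sum were 51.4% before and 51.7% after for Tcf7l1, 32.9% and 20.1% for Tcf7, 10.9% and 5.69% for Lef1, and 4.78% and 22.5% for Tcf7l2. A same-strand row named TCF4 lies within the 3′ part of the Tcf7l2 model, at 0.153 RPKM before and 4.41 after. The sharing of reads between that row and Tcf7l2 was not tested. In all, 20 members overlap another row of the table and 10 overlap a row at 1 RPKM or more.

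The tables also divide each gene by first exon, which gives the share of each promoter. Of the 48 members, 32 had 1 promoter and 16 had at least 2. Axin1, Lrp6, Tcf7 and Tcf7l1 reached 5 RPKM in both libraries, the minimum for comparing shares, and 0 of these 4 differed by 30 percentage points or more, against 4.52% of the 4532 genes compared. The largest difference was in Tcf7, whose farthest upstream first exon held 38.7% of the level before and 57.3% after, 18.6 points more. Lane by lane that share was 32.0% and 45.0% before and 81.8% and 37.5% after. The lanes of the differentiated library thus differed from each other by 44.3 points, more than the libraries did. The largest differences in Axin1 and Tcf7l1 were 3.25 and 2.38 points, and in Lrp6 0.187.

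**Figure D4:**
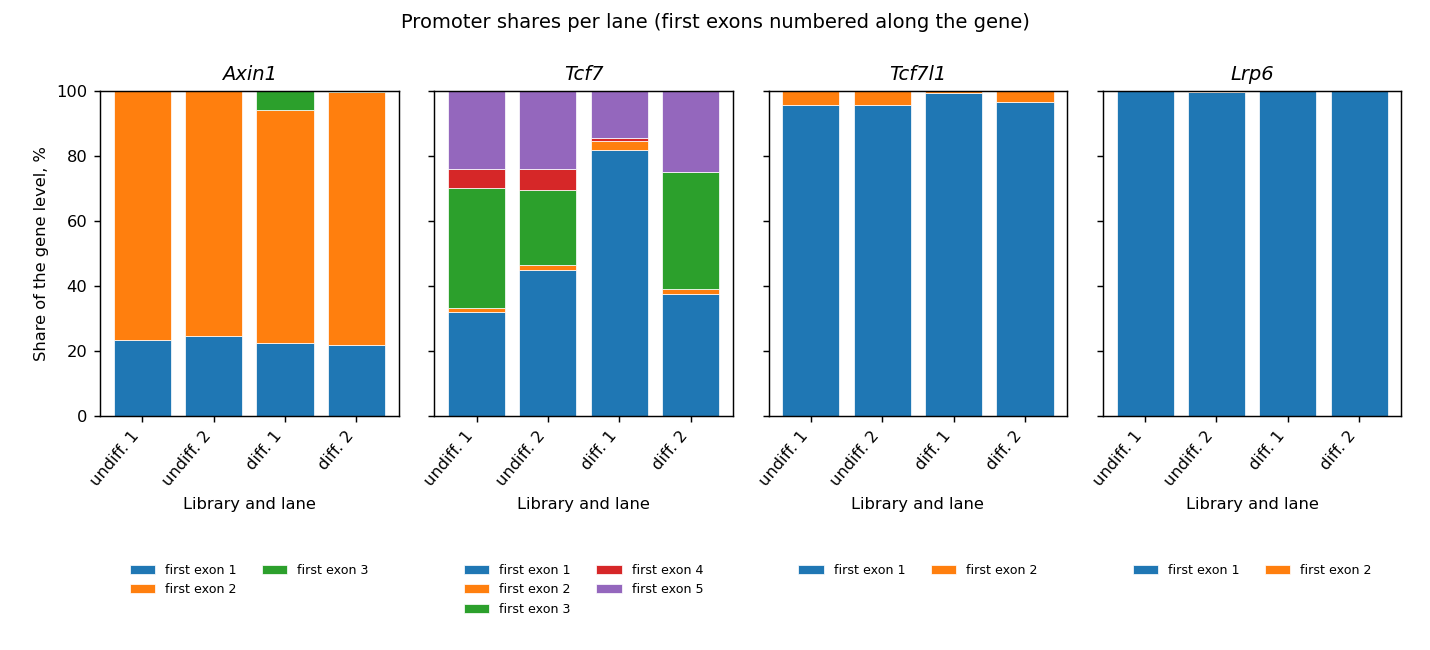
Share in percent of the gene level held by each first exon in each lane for the 4 members compared, numbered from the 5′ end of the gene. Axin1, Tcf7l1 and Lrp6 look alike in all lanes, while the first exon 1 of Tcf7 holds 81.8% in differentiated lane 1 and 37.5% in lane 2.

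Below that minimum, 2 ligands chosen after their values were seen add detail. In Wnt11 the tables divide the level after differentiation among 3 first exons. The most upstream was at 3.12 and 3.13 RPKM, the middle one at 16.0 and 15.9 and the most downstream at 8.04 and 8.50. The lanes were in close accord, but how reads were divided among first exons was not tested. In Wnt5a the upstream first exon was at 0.364 and 0.289 RPKM before and at 1.28 and 1.00 after, and the downstream one at 1.26 and 1.03 before and 1.30 and 1.11 after. The upstream share of Wnt5a was 22.2% before and 48.6% after, a difference of 26.4 points with lanes 1.97 points apart or closer. The difference in the Wnt5a gene value therefore lay mostly in the upstream first exon.

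The rest of the pathway was read from 6 lists with 90 genes, all found in the table, of which 71 reached the floor. Of these, 31 were higher, 3 were lower and 37 lay between, and their median log2 ratio was 0.68 beside 0.12 for all genes at the floor. The background at the floor was 19.1% higher and 8.48% lower. Over all 90 genes, with those below the floor included, the median was 0.46, beside 0.02 for all genes of the table. Some listed genes reached the floor through the differentiated library alone, so medians at the floor lean to the higher side, and the order of the lists differs without the floor.

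Genes of Wnt secretion and of the extracellular space included the highest ratios of the 6 lists. Of 16 genes 10 reached the floor, 6 were higher and 0 were lower. The median log2 ratio was 1.61 at the floor and 0.43 over all 16. Wls, the carrier that takes Wnt proteins to the cell surface, was at 1.47 and 1.47 RPKM before and at 87.4 and 91.9 after (5.20). Porcn, which attaches the lipid to Wnt proteins and was chosen after its values were seen, was at 14.8 RPKM before and 15.2 after (0.04). Tinagl1, a matrix protein, was at 1.55 and 81.1 RPKM (5.01), and Igfbp4, a binder of insulin-like growth factors that can also block Frizzled and Lrp6, at 7.62 and 74.5 (3.13). Frzb, the Sfrp relative whose symbol the name pattern does not cover and which was chosen after its values were seen, was at 0.104 and 7.79 RPKM (2.99), a level after differentiation like that of Sfrp5.

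Receptors outside the Frizzled family and genes of receptor turnover formed the next list. Of 13 genes 10 reached the floor, 8 were higher and 0 were lower (median log2 ratio 1.46 at the floor and 1.26 over all 13). Gpr124 and Reck are partners that let Frizzled respond to Wnt7a and Wnt7b in brain vessels. Gpr124 was at 0.642 and 0.675 RPKM before and at 45.6 and 43.1 after (4.77), and Reck at 1.60 and 9.29 in the means (1.98). Ror1, a receptor kinase that binds Wnt5a, was at 0.469 and 5.34 RPKM (2.11).

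Inside the cell, the Dishevelled genes Dvl1, Dvl2 and Dvl3 were among the genes called higher. Of 18 genes of the destruction complex and Dishevelled list 17 reached the floor, 6 were higher and 0 were lower (median log2 ratio 0.40 at the floor and 0.44 over all 18). Dvl2 was at 28.4 and 89.3 RPKM (1.62), Dvl3 at 11.1 and 33.8 (1.53) and Tnks, the tankyrase that marks Axin for breakdown, at 15.6 and 47.1 (1.53). The others called higher, named after their values were seen, were Dvl1 (6.88 and 21.3 RPKM), Gsk3b, a kinase of the destruction complex (10.7 and 24.9, 1.14), and Ctnnbip1, an inhibitor of β-catenin (7.19 and 20.4, 1.39). Ctnnb1, which encodes β-catenin and was chosen after its values were seen, was at 313 and 345 RPKM before and at 336 and 332 after (0.02), with overlapping lanes.

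Of 16 nuclear cofactors 15 reached the floor, 3 were higher and 2 were lower, shares near the background at the floor. The median log2 ratio was 0.13 at the floor and 0.30 over all 16. Bcl9l, a β-catenin adaptor, was at 2.35 and 15.6 RPKM (log2 ratio 2.31), Hipk2, a kinase, at 3.71 and 12.3 and the corepressor gene Ctbp2 at 157 and 54.3 (-1.51). The other gene called higher was Tbl1x (1.24), and the other called lower was Aes (-1.28), whose differentiated lanes were at 54.9 and 29.3 RPKM.

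Textbook targets outside the members stood mostly low: 7 of 15 genes reached the floor, with 3 higher and 1 lower. The median log2 ratio was 0.35 over those 7 and -0.02 over all 15. Tnfrsf19, a receptor of the tumour necrosis factor family, was at 2.03 and 13.6 RPKM (2.27), Sp8, a relative of Sp5, at 0.330 and 3.34 (1.71) and Cd44, a hyaluronan receptor, at 3.55 and 11.3 (1.44). Fgf4 was at 50.7 and 1.77 RPKM (-4.22), and it is known in ES cells as a target of Oct4 and Sox2. Of the primitive streak genes of the list, chosen after their values were seen, T, Mixl1 and Msgn1 were below 1 RPKM in both libraries, and Eomes was at 2.15 RPKM before and 1.55 after (-0.31).

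Genes of planar polarity completed the lists: of 12 genes, all at the floor, 5 were higher and 0 were lower (median log2 ratio 0.77). Prickle1 was at 1.33 and 14.7 RPKM (2.75), Daam2, a formin that acts with Dishevelled on actin, at 0.994 and 8.62 (2.27) and its paralogue Daam1 at 3.83 and 19.8 (2.10). Prickle2 (1.63) and the Dishevelled binder Dact1 (1.09) were the other 2.

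**Figure D5:**
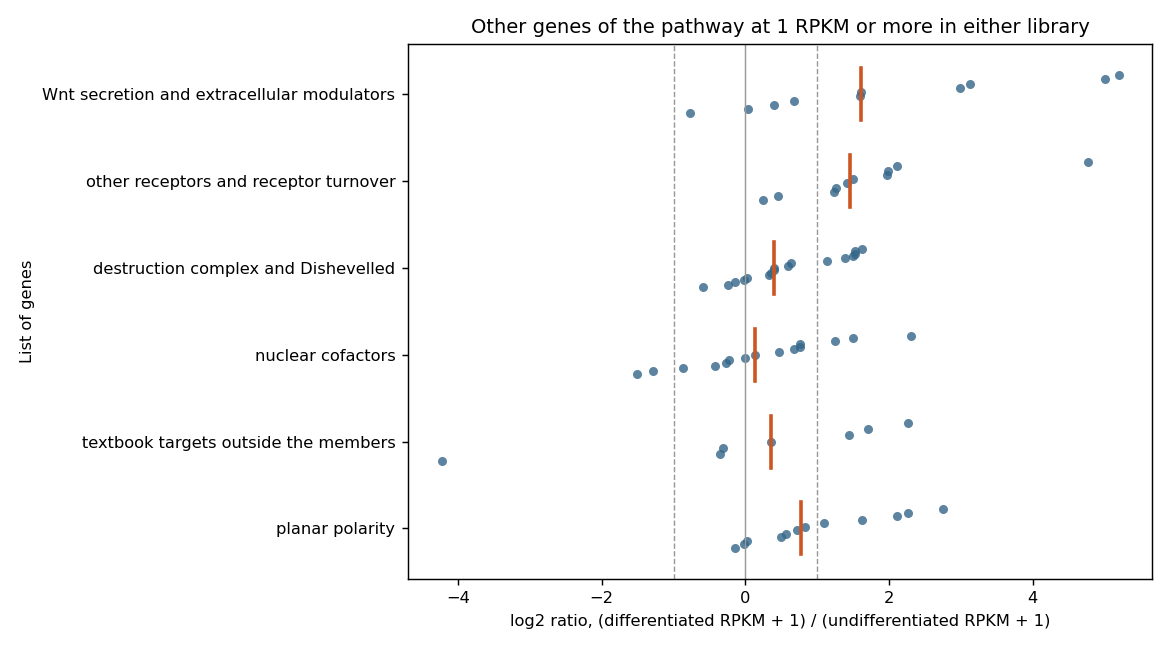
Log2 ratio of each of the 71 genes of the 6 lists that reached 1 RPKM in either library, 1 point per gene, with orange lines at list medians and dashed lines at 2-fold. The medians lie between 0.13 for nuclear cofactors and 1.61 for secretion and extracellular genes, and Fgf4 is the lowest point at -4.22.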

How the data were processed

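The data are poly(A) RNA sequencing of 1 undifferentiated and 1 differentiated library, 36 bp single-end reads on 2 lanes each, per the labels' protocols. The authors deposited tables of genes (34376 rows), promoters (55830) and transcripts (83402) with a value per lane and a mean, which equalled the lane mean in 100% of gene rows. Their unit is not named and was read as RPKM because in 7980 single-exon genes the deposited value times the model length fell on whole reads (tolerance 0.05 of a read) in 83.0% to 83.9% of low values. The build is mm9, per the submitters' processing notes. For the aligner, counting program and annotation, nothing is stated (not given in the sources used here). Tables count starts from 0 (end minus start equalled the transcript length in 2746 single-exon transcripts, and was 1 shorter in 26), and positions are printed with the first base as 1. The kit does not record strand.

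From these values log2 ratios with 1 RPKM added were computed in Python 3.11.15 (pandas 2.3.3, numpy 2.4.6, scipy 1.17.1), and figures were drawn with matplotlib 3.10.9. Of rows with a repeated symbol, 250 were dropped in favour of the row with the highest mean. The steps were tested on simulated data with counting error alone, which held no overlapping gene models and no variation between cultures. No count test was run on RPKM, and 0 columns of values lacked a sample. Members at the floor were named with lane values. Of each list the 3 genes at the floor with the largest absolute ratio were named, and of members with several promoters those past 30 percentage points or the 3 with the largest difference. Members, lists and the naming rule were chosen with earlier results of these data known. Sequences come from RefSeq on GRCm38.p6. Alternatives changed the added value, the floor, the lanes, the scaling and the treatment of repeated symbols.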

Additional observations from a re-analysis of the deposited data

How the results depend on the processing

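Over 11 alternative settings, with further settings for promoter shares, 249 recomputed counts and medians stayed close and 8 did not. Close meant counts within 1.5 times and medians within the lane spread. Taking the floor away could not change a count, because a 2-fold difference with 1 RPKM added already needs 1 RPKM. Summing repeated symbols could not change a member's value, because no member symbol is repeated. Of the recomputed log2 ratios of single members, 357 stayed within the spread of the member's lane ratios and 171 did not. Neither the floor settings nor the sum of repeated symbols could move a member's ratio. The lane settings were judged by the spread of those same lanes. The 357 therefore include agreements that were fixed or nearly fixed in advance. With a floor of 5 RPKM, 1 member was lower instead of 2, 3 ligands were higher instead of 6 and 1 receptor was lower instead of 2, since Fzd3, Fzd9, Wnt2b, Wnt3 and Wnt9a no longer reached the floor. The members' median log2 ratio of 1.11 was 1.38 with 0.1 RPKM added, 0.74 with no floor, 1.60 with a floor of 5 RPKM and 1.34 with equal RPKM sums. The number of members at least 2-fold higher ran from 16 (floor of 5 RPKM) to 24 (0.1 RPKM added). Axin2 and Lrp6 lost their call in lane 2 and under median, trimmed-mean and upper-quartile scaling (18 members higher in each of these scalings). These scalings and equal sums shifted the median of all genes by -0.12, -0.14, -0.11 and 0.21, and the share of higher genes among all called genes was 69.3% as deposited and 59.4%, 58.1%, 61.0% and 80.5% under them. Among called members it was 90.9%, and 88.9% to 94.1% over all settings. The sign changed in some settings for Sfrp2, Sp5 and Tcf7l1 at the floor and for Dkk4, Wnt8a and Wnt9b below it, and for no called member. In lane 1 alone 1 member, Tcf7, passed 30 percentage points in promoter share, and 0 did in the mean. No paired analysis was possible because each condition is 1 library. Below 1 RPKM a value can rest on few reads, and without replicate cultures the variation between cultures is unknown.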
